A study of Mus musculus with 14 samples.

Results

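The genes described here are 34 genes of T and B lymphocytes and related cytotoxic cells, chosen by symbol: the T cell receptor chains and coreceptors, the signalling proteins below them, cytokine receptor chains, B cell receptor and B cell surface genes, genes shared by all leukocytes, and granule genes of killer cells. They were measured in whole inguinal (number 4) mammary glands of untreated female mice of the outbred CD1 strain, with no genetic change and no treatment named for any group. The glands were taken at 3, 4, 5, 6 and 7 weeks of age, on 14 Affymetrix arrays: 2 at 5wk, lettered A and B, and 3 at every other age, lettered A to C. The RNA of an array came from a pool of 3 or more mice, and lymph nodes had been cut out of the glands beforehand. Of the 34 genes, 32 have at least 1 probe set (a group of short oligonucleotides for 1 transcript) that names that gene alone, and Lck and Il2rg were not analysed here. The 32 genes have 44 of the 22626 probe sets on the array, 21 genes having 1 probe set and 11 having 2 or 3.

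A T cell reads antigen through its receptor, whose variable chains have no signalling tail of their own and depend on the invariant Cd3 chains. Once the receptor is engaged, tyrosines in the Cd3 tails are phosphorylated, the kinase Zap70 binds to them, and Zap70 phosphorylates the scaffold Lat, from which the downstream pathways start. B cells carry an immunoglobulin in the same position, with Cd79a and Cd79b as its signalling chains. Mammary ducts hold lymphocytes within and beneath the epithelium, and the fat pad of the number 4 gland holds a lymph node, in which T and B cells are the main cell types. In a whole gland, fewer cells of a type and less RNA per cell cannot be told apart.

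Each deposited value is the probe set's signal divided by its median over the 14 arrays, so a value of 1 is the typical array for that gene, and ratios of different genes cannot be set against each other as levels. On every array the low values were whole multiples of a smallest step, and from these the signal before division, in steps, was recovered for 34.3% of all probe sets, those of low signal. Among the members 26 of 44 probe sets (59.1%) had such a low, recovered level. A probe set was tested only where it reached 200 steps on at least 2 arrays or had no recovered level. This left 36 member probe sets of 29 genes, and 8 were below it: both of Cd4, the only ones of Cd2 and Cd27, and 1 each of Cd8a, Coro1a, Il7r and Ms4a1. The defining helper cell coreceptor Cd4 lay between 10 and 95 steps on all arrays, and helper T cells could not be checked by it. The other defining markers of T and B cells, the Cd3 genes, Cd79a and Ms4a1, passed. Of the tested members with a recovered level, 2 passed through arrays of 1 week alone, both of Cd28, through 7wk arrays A and C. In steps, such a probe set had to be higher on those arrays than on any array of another week.

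RefSeq start sites with 250 bases before and 50 after were found for 22 of the 34 genes (27 windows, build GRCm38.p6). 6 are printed, as the genes that varied together most closely (Cd3d, Cd3g and Lat), those that passed a test of age and had a window (Zap70 and Gzma), and a B cell gene with an EBF match (Cd22). Each is written 5' to 3' along the gene, and capitals mark matches to the letters searched on both strands: the octamer ATGCAAAT, CCCNNGGG of EBF factors, TGTGGT of RUNX factors (ACCACA on the other strand) and CCGGAAG of ETS factors. None of these 4 overlapped another in the windows printed.
Cd3d, chr9:44981536-44981835, plus strand: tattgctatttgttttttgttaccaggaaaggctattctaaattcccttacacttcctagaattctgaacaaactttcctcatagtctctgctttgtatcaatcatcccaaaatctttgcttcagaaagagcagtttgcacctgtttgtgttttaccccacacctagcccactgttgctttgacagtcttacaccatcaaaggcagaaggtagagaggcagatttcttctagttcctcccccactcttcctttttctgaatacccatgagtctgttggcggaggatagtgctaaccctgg
Cd3g, chr9:44980382-44980681, minus strand: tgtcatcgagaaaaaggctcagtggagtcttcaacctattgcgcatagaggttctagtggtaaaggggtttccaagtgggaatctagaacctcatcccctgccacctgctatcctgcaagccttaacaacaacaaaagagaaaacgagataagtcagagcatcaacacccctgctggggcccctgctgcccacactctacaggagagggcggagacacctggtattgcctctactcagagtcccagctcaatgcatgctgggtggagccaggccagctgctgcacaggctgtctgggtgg
Lat, chr7:126369519-126369818, minus strand: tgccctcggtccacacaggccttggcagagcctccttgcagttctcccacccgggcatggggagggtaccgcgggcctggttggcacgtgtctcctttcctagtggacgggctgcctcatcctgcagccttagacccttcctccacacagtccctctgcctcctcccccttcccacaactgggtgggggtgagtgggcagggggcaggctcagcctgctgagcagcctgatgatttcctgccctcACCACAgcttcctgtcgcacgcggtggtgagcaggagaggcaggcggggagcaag
Zap70 (1 of 3 start sites), chr1:36764265-36764564, plus strand: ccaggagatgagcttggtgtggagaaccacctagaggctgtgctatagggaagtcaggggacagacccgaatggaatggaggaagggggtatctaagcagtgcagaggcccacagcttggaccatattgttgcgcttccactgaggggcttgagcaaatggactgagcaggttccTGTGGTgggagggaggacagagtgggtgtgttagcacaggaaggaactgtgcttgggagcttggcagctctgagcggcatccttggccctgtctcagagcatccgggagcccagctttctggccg
Gzma, chr13:113100932-113101231, minus strand: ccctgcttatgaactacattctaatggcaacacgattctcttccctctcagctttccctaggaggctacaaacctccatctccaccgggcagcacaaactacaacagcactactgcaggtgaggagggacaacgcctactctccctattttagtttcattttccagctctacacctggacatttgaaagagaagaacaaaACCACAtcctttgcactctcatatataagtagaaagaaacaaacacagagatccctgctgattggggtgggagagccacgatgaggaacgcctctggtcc
Cd22, chr7:30878979-30879278, minus strand: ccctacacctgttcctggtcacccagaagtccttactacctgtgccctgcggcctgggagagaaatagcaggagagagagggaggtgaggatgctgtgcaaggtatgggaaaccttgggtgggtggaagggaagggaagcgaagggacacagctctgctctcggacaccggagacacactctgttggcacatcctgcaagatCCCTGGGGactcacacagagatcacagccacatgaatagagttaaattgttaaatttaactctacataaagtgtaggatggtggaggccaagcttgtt
Cd3d and Cd3g are neighbours on chromosome 9 that are read in opposite directions from starts 1355 bases apart, and Cd3e starts 27825 bases from Cd3d. The RUNX letters were in the windows of 9 of the 22 genes (9 of 27 windows, 33.3%, against 16.8% of all 32851 windows): Gzma, Gzmb, Il2rg, Il7r, Lat, Lck, Nkg7, Prf1 and Zap70. The EBF letters were in 6 of 27 windows (22.2%, against 13.7% of all), those of Cd22, Cd27, Coro1a, Il2rg, Prf1 and Zap70. The ETS letters were in 1 window (3.70%, against 8.86%), that of Il2rg, and the octamer in 0 of 27 (1.74% of all). These are descriptions of letters near start sites, and none was tested against the measurements.

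The arrays of one age did not agree for these genes. Arrays 3wk A and 4wk B stood apart on the low side: 3wk A was the lowest of its week for 26 of the 36 tested member probe sets and 4wk B for 21, while 7wk A was the lowest of its week for 23. Array 3wk A was also low over the whole array, with 38.7% of all tested probe sets above their own median, where the others ranged from 43.5% to 56.8%. The mean log2 ratio over the 29 member genes was, in the order of the letters, -0.38, 0.63 and 0.60 at 3wk, 0.32, -0.63 and -0.01 at 4wk, and -0.25 and -0.48 at 5wk. It was -0.75, -0.67 and -0.43 on the 6wk arrays and 0.15, 1.02 and 0.75 on the 7wk arrays. All 6wk arrays were thus below all 7wk arrays in this mean, while the range between arrays was 1.01 at 3wk and 0.95 at 4wk.

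Of the Cd3 chains, Cd3d differed most between arrays and had the largest residual spread of all members. Cd3d, an invariant chain of the receptor, had ratios, here and below in the order of the letters, of 0.342, 6.75 and 14.1 at 3wk, 7.49, 0.668 and 1.59 at 4wk, and 1.16 and 0.806 at 5wk. It was 0.515, 0.245 and 0.479 on the 6wk arrays and 0.843, 15.6 and 2.55 on the 7wk arrays. The highest array was 63.7 times the lowest, and within 3wk alone array C was 41.3 times array A. Its recovered signal ran from 14 to 920 steps, so that on the low arrays it was near the floor of the measurement. High values stood on 3wk B, 3wk C, 4wk A and 7wk B, and the 6wk arrays were low without exception.

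Cd3g, another invariant chain of the receptor, had ratios of 0.677, 2.61 and 3.66 at 3wk, 1.93, 0.5 and 1.13 at 4wk, and 0.985 and 0.754 at 5wk. At 6wk it was 0.35, 0.616 and 0.603, and at 7wk 1.01, 3.34 and 1.84. All 6wk arrays of Cd3g were below all 3wk and all 7wk arrays. Cd3e was 0.434, 1.54 and 3.02 at 3wk, 1.75, 0.328 and 2.001 at 4wk, and 0.303 and 0.370 at 5wk. It was 0.491, 0.332 and 0.820 at 6wk and 1.18, 3.35 and 2.55 at 7wk. For Cd3e the 6wk arrays lay below all 7wk arrays but overlapped the 3wk arrays, through 3wk A.

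The 3 chains shared much of their array pattern, with exceptions in Cd3e, for which 4wk C was above 4wk A and 3wk B and the 5wk arrays were among the lowest. Over the 14 arrays Pearson's r of the log2 ratios was 0.94 between Cd3d and Cd3g, 0.82 between Cd3d and Cd3e and 0.84 between Cd3e and Cd3g. After the week means were taken away the median of the 3 pairs was 0.86, so that arrays of the same age kept the likeness. The median over all pairs of tested probe sets was 0.01, and 0.02 after the week means were taken away. The correlations in this report share arrays, RNA pools and scaling, and are given as descriptions.

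**Figure D1:**
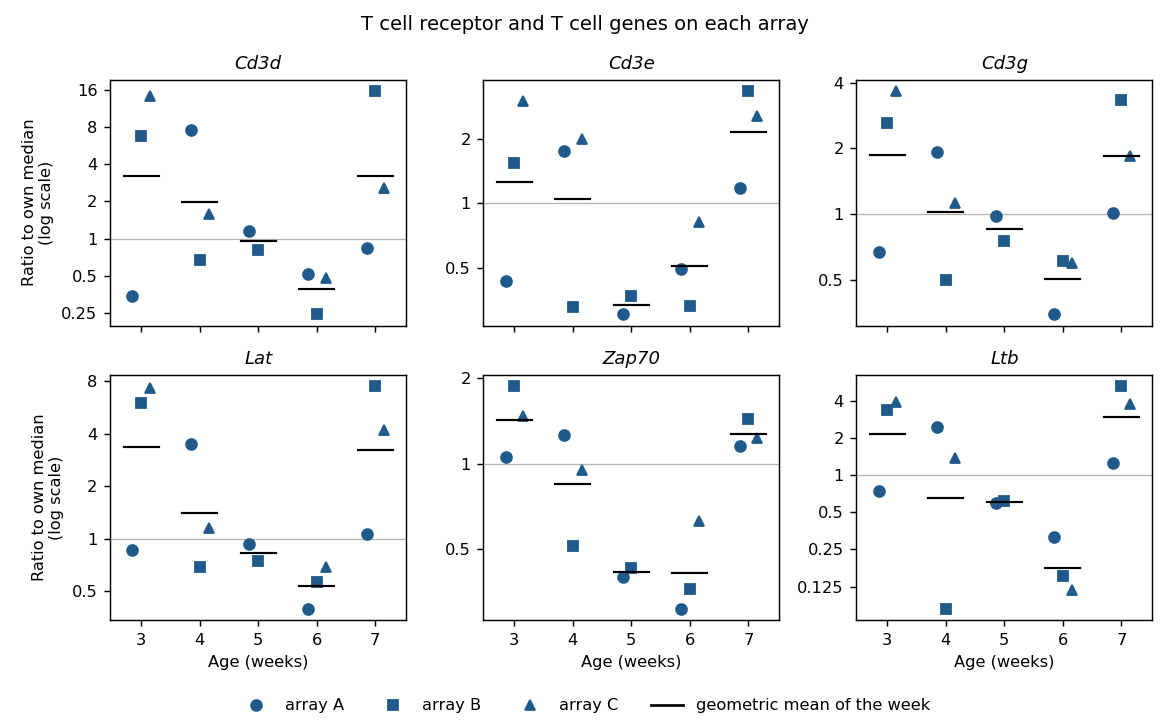
Ratio to the gene's own median over 14 arrays (log axis) against age in weeks for Cd3d, Cd3e, Cd3g, Lat, Zap70 (the probe set called between ages) and Ltb. Each symbol is 1 array (A circle, B square, C triangle) and the black line is the geometric mean of the week. For Cd3d and Cd3g the 3wk arrays B and C, 4wk A and 7wk B are the highest 4, while 3wk A lies with the low arrays.

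Next in the pathway, Lat, the scaffold, had ratios of 0.860, 5.99 and 7.28 at 3wk, 3.47, 0.692 and 1.16 at 4wk, and 0.932 and 0.745 at 5wk. At 6wk it was 0.395, 0.564 and 0.685, and at 7wk 1.07, 7.51 and 4.16. Lat correlated with Cd3g at r = 0.98 and with Cd3d at r = 0.94 over the 14 arrays, and its 6wk arrays were below all arrays of 3wk and 7wk.

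Zap70, the kinase that docks on the phosphorylated Cd3 tails, was the one T cell receptor gene called between ages. Its probe set 1422701_at was 1.05, 1.88 and 1.47 at 3wk, 1.26, 0.514 and 0.948 at 4wk, 0.401 and 0.430 at 5wk, 0.308, 0.364 and 0.630 at 6wk and 1.15, 1.43 and 1.23 at 7wk. The 5wk and 6wk arrays lay below every 3wk and 7wk array. It passed the F test over the 5 ages (limma, adjusted p = 0.0151), but not with the 5' to 3' actin ratio as a covariate (adjusted p = 0.164). It fell by 1.79 on the log2 scale from 3wk to 6wk (SE 0.34, adjusted p = 0.0072) and by 1.78 from 3wk to 5wk (SE 0.39, adjusted p = 0.0295). The difference of 7wk from 6wk was 1.62 (SE 0.34, adjusted p = 0.0584), just short of the threshold. The fall from 3wk to 5wk lost its call without 3wk B, 3wk C, 5wk A or 5wk B, and with the 5' to 3' actin ratio of each array as a covariate neither passed (-1.56 and adjusted p = 0.106 for 5wk, -1.38 and adjusted p = 0.185 for 6wk). It had reached the level for testing through 3wk and 7wk arrays alone, and with no filter both passed (adjusted p = 0.0444 and 0.0116). The second Zap70 probe set, 1439749_at, ran only from 0.797 to 1.44, its 6wk arrays also below its 3wk arrays (difference -0.43, SE 0.16, adjusted p = 0.105). The 2 probe sets of Zap70 therefore gave the same direction and different sizes.

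Among the coreceptors, Cd8a and Cd8b1 form the receptor by which killer T cells bind class I major histocompatibility molecules. Cd8b1 was 1.08, 2.34 and 2.65 at 3wk, 1.25, 0.0836 and 1.34 at 4wk, and 0.278 and 0.532 at 5wk. At 6wk it was 0.353, 0.387 and 0.779, and at 7wk 0.924, 2.92 and 1.64. The value on 4wk B stood for 9 steps, and Cd8b1 had the third largest residual spread of the members. The tested Cd8a probe set was 1.04, 1.43 and 1.14 at 3wk, 1.30, 0.833 and 0.702 at 4wk, 0.673 and 0.197 at 5wk, 0.788, 0.504 and 0.957 at 6wk and 1.05, 1.05 and 1.23 at 7wk. In these probe sets of both coreceptor chains all 6wk arrays were below all 3wk and all 7wk arrays, and neither passed the test (limma, adjusted p = 0.178 for Cd8b1 and 0.265 for Cd8a at 6wk against 3wk). The untested Cd8a probe set 1425335_at was 4.965, 0.92 and 4.865 at 3wk, 0.802, 1.131 and 0.748 at 6wk and 0.739, 1.097 and 0.926 at 7wk. Its 6wk arrays thus overlapped both other ages.

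Cd4, which binds class II molecules on helper T cells, gave ratios of 0.935, 1.21 and 1.44 at 3wk, 0.985, 1.01 and 0.752 at 4wk, 0.565 and 1.16 at 5wk, 0.824, 0.799 and 0.834 at 6wk and 1.30, 1.65 and 1.47 at 7wk with its probe set 1419696_at. These values stand for 25 to 95 steps and were not tested. The probe set 1427779_a_at ranged from 10 to 27 steps. With no filter on level it fell by 0.73 on the log2 scale from 3wk to 6wk (SE 0.20, adjusted p = 0.047). Its 6wk ratios were 0.568, 0.579 and 0.685, against 1.01, 1.21 and 0.849 at 3wk. The remaining surface genes of this group were Cd5 (ratios from 0.486 to 1.21), Cd6 (0.162 to 2.09), Cd2 (0.638 to 2.68, not tested) and Cd27 (0.236 to 3.13, not tested), the first pair of which were not called in any comparison.

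Cd28, the costimulatory receptor that T cells need beside the antigen signal, had the smallest p of all members and did not follow the Cd3 chains. Its probe set 1437025_at was 1.09, 1.11 and 0.738 at 3wk, 0.864, 0.637 and 0.541 at 4wk, 0.656 and 0.946 at 5wk, 1.05, 1.30 and 0.914 at 6wk and 5.59, 4.33 and 6.48 at 7wk. The 3 arrays of 7wk stood far above all others and close to each other. It reached the level for testing through 7wk A and C alone, so the filter favoured its tests of 7wk. On the log2 scale it rose by 2.48 from 3wk to 7wk (SE 0.25, limma, adjusted p = 0.000226) and by 2.32 from 6wk to 7wk (SE 0.25, adjusted p = 0.003), and passed the F test (adjusted p = 0.000268). With no filter, where its level did not decide its entry, the adjusted p was 0.000467, 0.00604 and 0.00061. In steps it was 20 to 57 on the 11 arrays of 3wk to 6wk and 195 to 375 at 7wk, so the size of the difference depends on a signal near the floor. The other Cd28 probe set, 1417597_at, was 0.447, 1.18 and 1.06 at 3wk, 0.186, 1.285 and 0.816 at 4wk, and 0.824 and 1.47 at 5wk. It was 0.658, 0.211 and 0.943 at 6wk and 1.43, 1.56 and 2.39 at 7wk. Its 7wk arrays were above all 3wk, 4wk and 6wk arrays, but 5wk B was above 7wk A. It had no call (limma, 7wk minus 3wk 1.09, SE 0.72, adjusted p = 0.419). The correlation of probe set 1437025_at with the mean of the Cd3 genes was 0.28, and -0.30 once week means were taken away. Its call at 7wk against 6wk was lost with the actin 5' to 3' ratio as a covariate (difference 2.5, adjusted p = 0.0874), and under a filter of 400 steps it was not tested.

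Of the cytokine and cytokine receptor chains, Ltb, the membrane lymphotoxin by which lymphocytes organise lymphoid tissue, varied most. It was 0.743, 3.38 and 3.94 at 3wk, 2.45, 0.0819 and 1.37 at 4wk, and 0.592 and 0.613 at 5wk. At 6wk it was 0.317, 0.153 and 0.117, and at 7wk 1.26, 5.32 and 3.81. The 6wk arrays were below all arrays of 3wk and 7wk. The difference of 6wk from 3wk was -3.59 (SE 1.11, adjusted p = 0.0547) and that of 7wk from 6wk 4.04 (SE 1.11, adjusted p = 0.135), the largest of the members in both. Without 4wk B, the array at 0.0819, both passed, with adjusted p = 0.00999 and 0.0362.

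Il7r, the receptor for the survival signal of resting T cells, was 1.01, 1.02 and 1.29 at 3wk, 1.26, 0.458 and 0.734 at 4wk, 0.861 and 0.993 at 5wk, 0.991, 0.754 and 0.649 at 6wk and 1.24, 1.81 and 1.38 at 7wk in its tested probe set. The 7wk arrays were above all 6wk arrays (difference 0.89, SE 0.31, adjusted p = 0.232). Il2rb, a shared chain of the interleukin 2 and 15 receptors, has 2 tested probe sets that disagree. Probe set 1448759_at was 2.59, 4.64 and 0.896 at 3wk, 3.71, 1.08 and 0.747 at 4wk, 0.923 and 1.48 at 5wk, 0.832, 0.482 and 0.764 at 6wk and 0.793, 3.34 and 2.52 at 7wk. Probe set 1417546_at was 0.376, 1.47 and 0.338 at 3wk, 1.68, 0.547 and 1.56 at 4wk, 0.689 and 1.32 at 5wk, 0.424, 0.873 and 0.782 at 6wk and 1.32, 1.604 and 1.13 at 7wk. The 6wk minus 3wk difference was -1.71 in the first (SE 0.73) and 0.21 in the second (SE 0.58), and neither passed.

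The median residual SD about the week means, on the log2 scale, was 0.53 for the 9 B cell probe sets (0.29 to 1.08) and 1.07 for the 3 Cd3 chains (0.90 to 1.89), ranges that overlap. Cd79a, a signalling chain of the B cell receptor, was 1.24, 1.70 and 1.11 at 3wk, 1.55, 0.725 and 1.40 at 4wk, 0.777 and 0.656 at 5wk, 0.689, 0.889 and 0.822 at 6wk and 0.812, 1.61 and 1.37 at 7wk. Cd79b, its partner, was 1.32, 1.21 and 0.830 at 3wk, 1.16, 0.591 and 1.23 at 4wk, 0.875 and 0.474 at 5wk, 1.05, 0.947 and 0.901 at 6wk and 0.858, 1.44 and 1.71 at 7wk. The 2 correlated at r = 0.77 over the 14 arrays. For Cd79a all 6wk arrays were below all 3wk arrays, a difference of -0.74 (SE 0.32, adjusted p = 0.148).

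Ms4a1, which encodes the B cell surface protein CD20, was 1.39, 1.18 and 1.004 at 3wk, 1.59, 0.436 and 1.13 at 4wk, 0.996 and 0.680 at 5wk, 0.786, 0.463 and 0.693 at 6wk and 0.942, 2.14 and 1.26 at 7wk. Its 6wk arrays lay below all 3wk and all 7wk arrays (7wk minus 6wk 1.11, SE 0.44, adjusted p = 0.295). Pou2af1, the B cell coactivator of octamer-binding factors, had another course: 0.642, 0.747 and 1.03 at 3wk, 1.69, 0.970 and 1.35 at 4wk, 0.718 and 0.952 at 5wk, 1.001, 1.52 and 0.934 at 6wk and 0.999, 1.95 and 2.26 at 7wk. Its 7wk minus 3wk difference was 1.05 (SE 0.33, adjusted p = 0.0776). It passed with the actin ratio as a covariate (1.10, adjusted p = 0.0497), with the hybridisation controls as a covariate (2.09, adjusted p = 0.00809) and without 7wk A (1.41, adjusted p = 0.0261).

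Cd22, an inhibitory receptor of B cells, has 2 tested probe sets. Probe set 1419768_at was 1.03, 1.19 and 0.985 at 3wk, 1.17, 0.758 and 0.788 at 4wk, 0.800 and 1.14 at 5wk, 0.653, 0.828 and 0.922 at 6wk and 1.01, 1.57 and 1.17 at 7wk. Probe set 1419769_at was 3.41, 0.560 and 0.802 at 3wk, 0.608, 4.09 and 2.69 at 4wk, 0.479 and 1.198 at 5wk, 0.521, 0.773 and 0.536 at 6wk and 1.96, 5.85 and 2.59 at 7wk. In the second the arrays 3wk A and 4wk B were high, where they were low for most members, and its correlation with the Cd3 mean was 0.13 against 0.67 for the first. Blk, a B cell kinase of the Src family, was 0.576, 1.205 and 1.48 at 3wk, 0.898, 1.87 and 0.720 at 4wk, 0.670 and 1.12 at 5wk, 0.882, 0.541 and 1.56 at 6wk and 1.05, 0.948 and 1.77 at 7wk, with all ages overlapping. Cd37, a tetraspanin of mature B cells, ran from 0.455 to 3.90 in probe set 1419206_at, with its 7wk arrays above all 6wk arrays, and from 0.359 to 1.51 in 1425736_at.

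**Figure D2:**
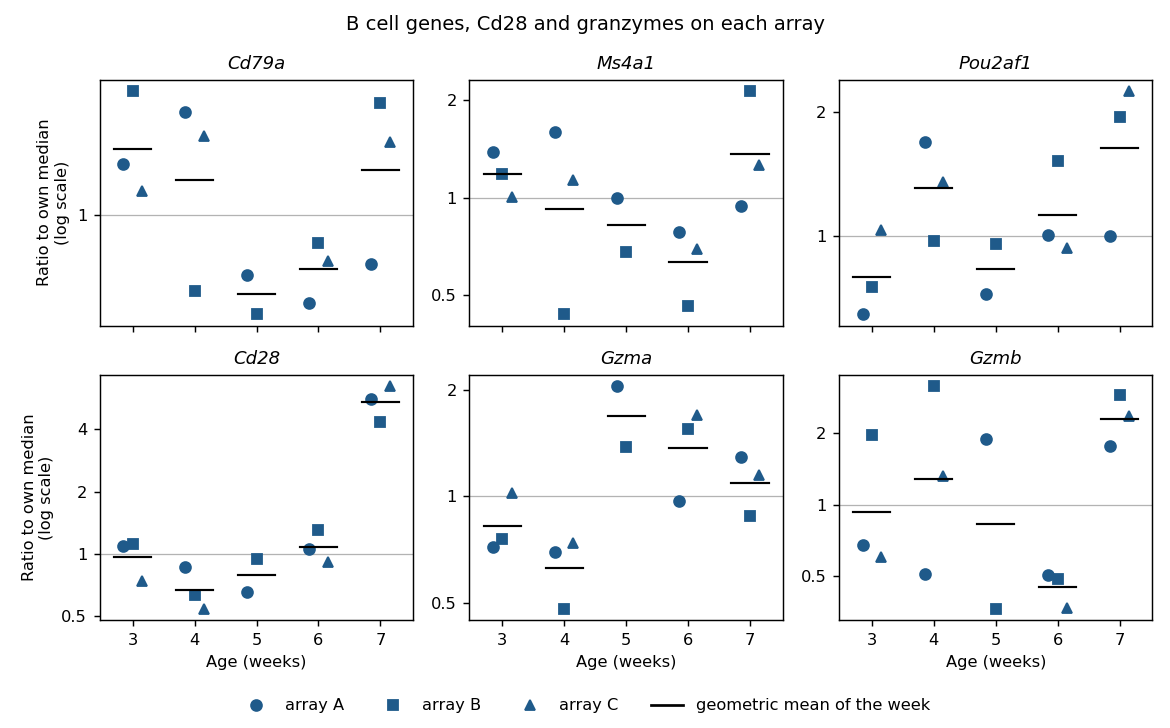
Ratio to the gene's own median over 14 arrays (log axis) against age in weeks for Cd79a, Ms4a1, Pou2af1, Cd28 (probe set 1437025_at), Gzma and Gzmb. Each symbol is 1 array (A circle, B square, C triangle) and the black line is the geometric mean of the week. Cd28 sits between 4.33 and 6.48 on the 7wk arrays and at or below 1.30 on all others, and Gzma is highest on 5wk A.

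The genes shared by leukocytes followed the Cd3 chains in part. Ptprc, which encodes CD45, the phosphatase on all nucleated blood cells, was 0.772, 1.52 and 1.46 at 3wk, 1.33, 0.569 and 0.851 at 4wk, 1.14 and 0.840 at 5wk, 0.803, 0.902 and 0.932 at 6wk and 1.07, 1.54 and 1.53 at 7wk. Its highest array was 2.70 times its lowest, far less than for Cd3d. Its correlation with the Cd3 mean was 0.85. Ptprcap, a small protein bound to CD45, ran from 0.223 to 2.09, Coro1a, an actin regulator of leukocytes, from 0.357 to 1.81 and from 0.282 to 2.62 in its 2 tested probe sets, and Itgal, the integrin chain by which lymphocytes adhere, from 0.262 to 1.55. None of these 4 genes was called in any comparison.

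The granule genes of killer cells were less alike. Gzma, granzyme A, was 0.718, 0.758 and 1.03 at 3wk, 0.698, 0.480 and 0.740 at 4wk, 2.06 and 1.38 at 5wk, 0.974, 1.56 and 1.70 at 6wk and 1.29, 0.879 and 1.15 at 7wk. Both 5wk arrays lay above all 3wk and 4wk arrays. It passed the F test (limma, adjusted p = 0.0363) with no single comparison called, the nearest being 5wk minus 4wk with 1.42 (SE 0.30, adjusted p = 0.0593). The F test call was lost in 10 of the 14 fits that left out 1 array. These were the fits without 3wk A or B, 4wk A, B or C, 5wk A, 6wk B or C, and 7wk A or C, with an adjusted p of up to 0.212 over all settings. The correlation of Gzma with the Cd3 mean was -0.24.

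Gzmb, granzyme B, was 0.681, 1.97 and 0.603 at 3wk, 0.512, 3.17 and 1.32 at 4wk, 1.89 and 0.364 at 5wk, 0.507, 0.488 and 0.368 at 6wk and 1.76, 2.90 and 2.37 at 7wk. The 7wk arrays were above all 6wk arrays (difference 2.35, SE 0.71, adjusted p = 0.172), and r with Gzma was -0.32. Prf1, the pore-forming perforin, was 0.979, 1.001 and 1.32 at 3wk, 1.39, 1.15 and 0.927 at 4wk, 1.02 and 1.45 at 5wk, 0.865, 0.710 and 0.669 at 6wk and 0.999, 0.688 and 1.27 at 7wk in probe set 1450335_at. Its other probe set, 1451862_a_at, ran from 0.446 to 1.25.

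Nkg7, a granule membrane protein, was 0.953, 1.11 and 1.15 at 3wk, 0.261, 1.05 and 0.522 at 4wk, 0.880 and 1.75 at 5wk, 0.909, 0.760 and 0.911 at 6wk and 1.08, 1.81 and 1.16 at 7wk. Klrd1, the CD94 chain of killer cell receptors, was 0.703, 1.22 and 1.03 at 3wk, 1.24, 0.613 and 0.567 at 4wk, 1.80 and 0.838 at 5wk, 0.969, 1.11 and 0.669 at 6wk and 0.597, 1.32 and 1.24 at 7wk. The ages overlapped for Klrd1, and neither gene was called. The median r between pairs of the 6 probe sets of killer cell genes was 0.13.

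Counted over the members, few passed the test. The F test over the 5 ages called 3 of the 36 tested probe sets (Cd28, Zap70 and Gzma), 8.33%, where it called 10.2% of all 18625. At 7wk against 3wk 1 member rose (Cd28, tested only through its 7wk arrays; 8.46% of all called), and at 6wk against 3wk 1 fell (Zap70; 13.5% of all). At 5wk against 3wk 1 fell (Zap70; 3.54% of all), and at 7wk against 6wk 1 rose (Cd28; 0.886% of all). At 4wk against 3wk (0.150% of all), 5wk against 4wk (0.725%) and 6wk against 5wk (0.279%) limma called 0 members. In these 3 comparisons an unadjusted p under 0.05 was reached by 1 member (2.78%, against 10.2% of all), 4 members (11.1%, against 14.8%) and 2 members (5.56%, against 10.5%). Each of these shares rests on at most 4 probe sets, and nothing is read from its distance to the background. With the hybridisation controls as a covariate the F test called 8 of 36 members (22.2%, against 5.38% of all), and with the 5' to 3' actin ratio it called 1 (Cd28; 2.78%, against 4.54%).

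The direction was more uniform than the calls. The members share arrays and RNA pools, many vary together, and some genes have 2 probe sets. Counts of members here and below are therefore not counts of separate observations. At 6wk against 3wk 32 of 36 differences were below 0 (88.9%, against 43.9% of all tested probe sets), with a median of -0.71 against 0.07 over all. All 6wk arrays were below all 3wk arrays for 17 members (47.2%), against 12.0% of all tested probe sets, and above them for 0, against 20.5%. The 17 include Cd8b1, Lat, Ltb, Zap70 1422701_at and Il2rb 1448759_at, which reached 200 steps at 3wk and on no 6wk array. For these the filter favoured 3wk over 6wk. An unadjusted p under 0.05 was reached by 10 members (27.8%), close to the 28.7% of all. That count was 4 without 3wk B (11.1%, against 26.7% of all) and 5 without 3wk C (13.9%, against 26.1%). With the actin ratio as a covariate it was 3 (8.33%, against 18.4%). It was higher, at 14, without 3wk A (38.9%, against 25.7%). Median centring gave 15 (41.7%, against 28.6%) and quantile normalization 14 (38.9%, against 25.4%). With no filter the non-overlapping members were 22 of 44 (50%, against 11.9% of all). Without 3wk A they were 27 of 36 (75.0%, against 18.8%). In that fit Ltb, Cd3g, Cd3d and Lat passed beside Zap70, which makes 5 members (13.9%, against 9.65% of all).

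At 7wk against 6wk 35 of 36 differences were above 0, against 9125 of all 18625. The exception was Gzma, and the median was 1.02 against -0.01 over all. All 7wk arrays were above all 6wk arrays for 24 members (66.7%), against 10.3% of all tested probe sets, and below them for 0, against 10.5%. An unadjusted p under 0.05 was reached by 16 members (44.4%), against 13.9% of all. The 24 and the 16 both include the 2 probe sets of Cd28, which were tested only because they reached 200 steps at 7wk. Both also include Cd3d, Lat, Ltb, Gzmb, Zap70 1422701_at and Cd37 1419206_at, which reached 200 steps at 7wk and on no 6wk array. The same holds for Cd6 and Cd8b1 among the 24. For all these probe sets the filter favoured 7wk over 6wk. The count at an unadjusted p under 0.05 was 6 without 7wk B (16.7%, against 10.3% of all) and 10 without 6wk A (27.8%, against 11.3%). It was 3 with the actin ratio as a covariate (8.33%, against 7.53%) and 20 without 7wk A (55.6%, against 13.8%). With no filter it was 18 of 44 (40.9%, against 12.3%). With no filter the non-overlapping members were 27 of 44 (61.4%, against 10% of all). The group medians were 2.08 for the Cd3 chains, 1.77 for coreceptors and surface genes, 1.62 for receptor signalling, 1.25 for cytokine chains, 1.02 for leukocyte genes, 0.61 for B cell genes and 0.44 for killer cell genes. The 2 comparisons share the 6wk arrays, so that their opposite directions are not separate evidence.

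At 7wk against 3wk the median of the members was 0.21 against 0.08 over all, with 25 of 36 above 0, against 10916 of all 18625. All 7wk arrays were above all 3wk arrays for 2 members (5.56%), both probe sets of Cd28, which were tested only because they reached 200 steps at 7wk, against 18.4% of all, and below them for 0, against 9.81%. Members with an unadjusted p under 0.05 were 2 of 36 (5.56%), against 22.6% of all, Cd28 and Pou2af1. At 5wk against 3wk they were 6 of 36 (16.7%), against 17.6% of all.

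**Figure D3:**
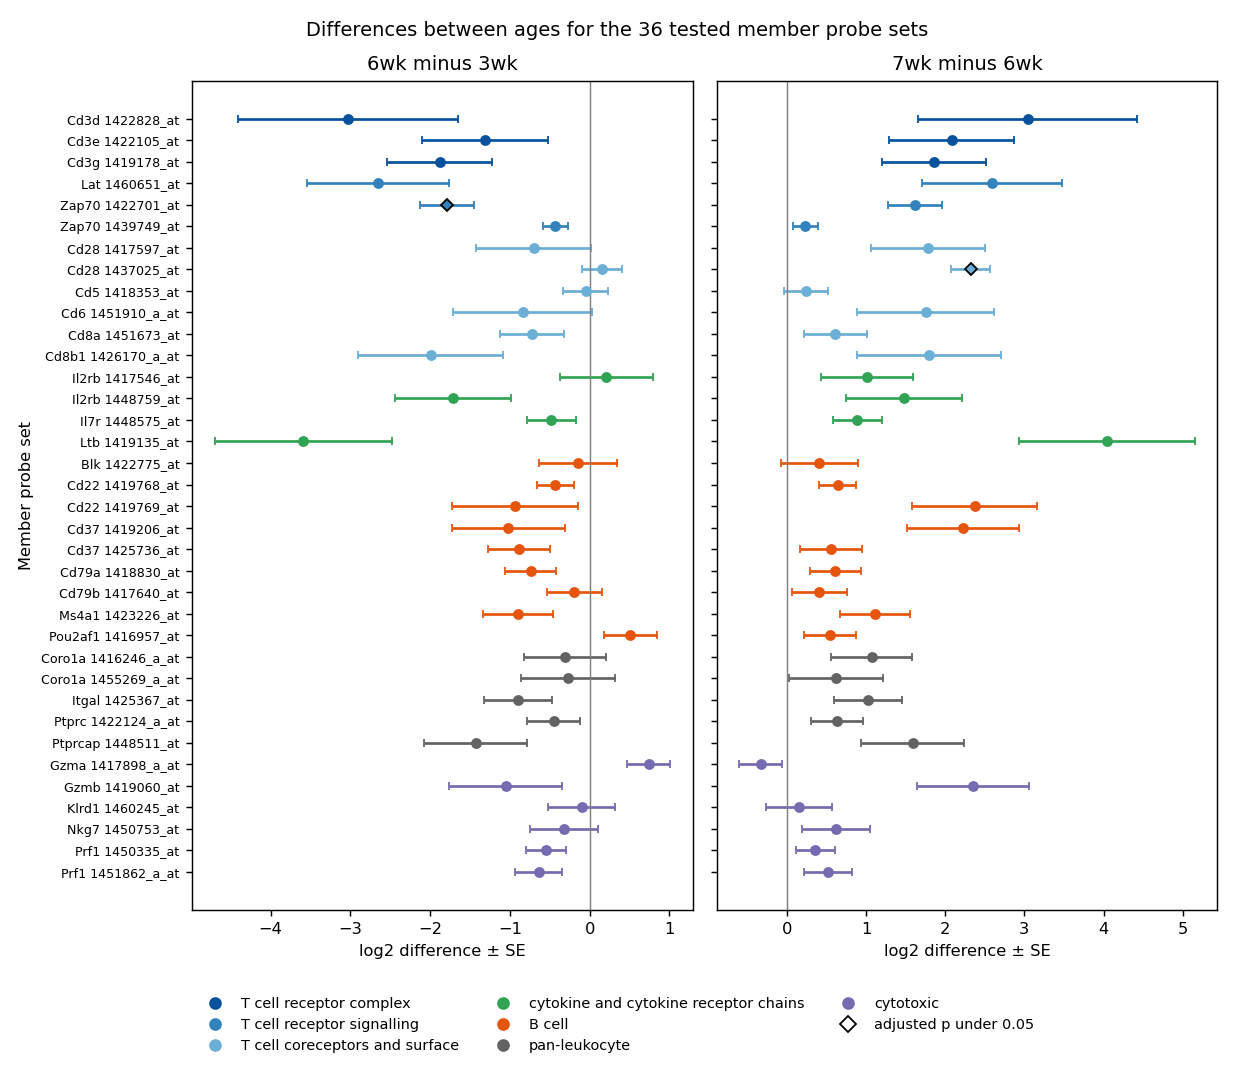
The log2 difference of 6wk from 3wk (left) and of 7wk from 6wk (right) for the 36 tested member probe sets, with bars for the SE of the fit and colours for the gene group. Diamonds passed an adjusted p of 0.05. On the left 32 points lie below 0 and on the right 35 above it, and most bars are wide, reaching an SE of 1.38 for Cd3d.

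The spread between arrays of one week set how far these differences could be told from noise. The median residual SD about the week means was 0.59 on the log2 scale for the members and 0.28 for all tested probe sets. Low signal is part of that comparison: for members with a recovered level the median was 0.97 against 0.70 for all such probe sets, and for the other members 0.44 against 0.24. Cd3d had the largest (1.89), followed by Ltb (1.52), Cd8b1 (1.25), Lat (1.21) and Cd6 (1.19), and Zap70 probe set 1439749_at the smallest (0.19). At 4wk the highest array was at least 2 times the lowest for 26 of 36 members (72.2%, against 16.2% of all), at 3wk for 17 (47.2%, against 18.6%), at 7wk for 14 (38.9%, against 13.8%), at 6wk for 12 (33.3%, against 15.5%) and at 5wk, with 2 arrays, for 7 (19.4%, against 8.9%).

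**Figure D4:**
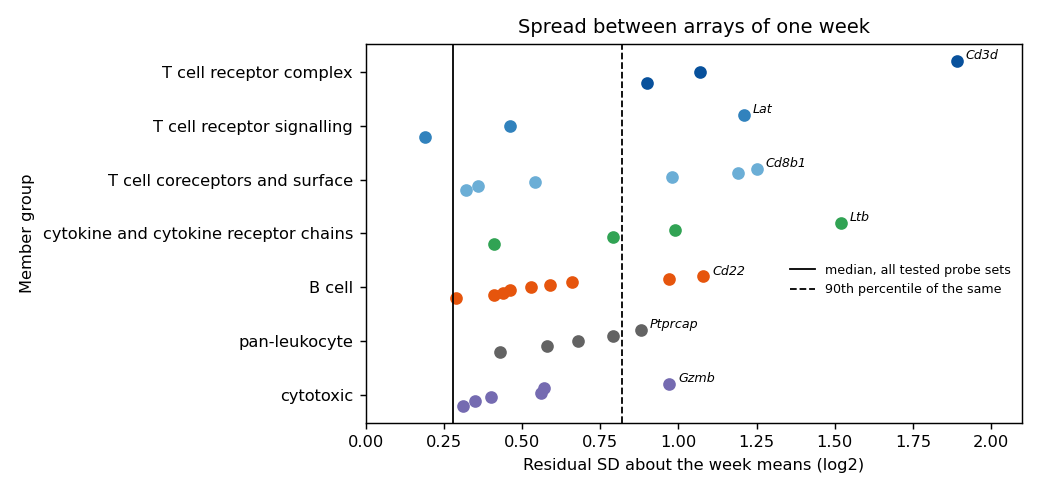
Residual SD about the week means (log2 scale) of each tested member probe set, by gene group, with the gene of the largest value in each group named. The solid line is the median over all tested probe sets (0.28) and the dashed line their 90th percentile (0.82). The 3 Cd3 chains lie beyond the dashed line, while most B cell and killer cell genes lie between the lines.

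Other genes outside the list shared the array pattern. The 8 genes whose log2 ratios over the 14 arrays were most like the mean of the member genes had r from 0.848 to 0.952. They were Ighv14-2, an immunoglobulin variable gene (0.952), Trav9d-3 and Trbv1, variable genes of the T cell receptor (0.935 and 0.899), Septin1, Epsti1, 1700097N02Rik, Ikzf1, a transcription factor of lymphocytes (0.879), and Tmsb10. Ighv14-2 was 1.29, 4.09 and 3.82 at 3wk, 3.88, 0.252 and 0.951 at 4wk, 0.616 and 0.248 at 5wk, 0.411, 0.245 and 0.336 at 6wk and 1.05, 10.4 and 6.70 at 7wk. Its high arrays were 3wk B and C, 4wk A and 7wk B and C.

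Longer lists of lymphocyte genes gave few calls. Of 27 other T cell genes 16 were tested as genes and limma called 0 in the F test (2 at an unadjusted p under 0.05), where it called 10.7% of all 10748 genes. At 6wk against 3wk it called Cd96, a T and killer cell receptor (-1.02, SE 0.22, adjusted p = 0.0122), and Thy1, which fibroblasts and nerve cells also carry, in the other direction (0.96, SE 0.26, adjusted p = 0.0304), where it called 13.9% of all genes. Of 27 other B cell genes 19 were tested, with 0 called in limma's F test (5 at an unadjusted p under 0.05), and Cr2, the complement receptor of B cells (-0.74, SE 0.17, adjusted p = 0.0145), and Ebf1, which fat precursor cells also express (-0.46, SE 0.11, adjusted p = 0.0222), lower at 6wk than at 3wk. At 7wk against 6wk limma called 0 genes of both lists (1 T cell and 5 B cell genes at an unadjusted p under 0.05), against 0.354% of all genes, and the medians were 0.21 for the T cell list and 0.31 for the B cell list. Their mean log2 ratios correlated with the Cd3 mean at r = 0.82 and 0.68. The mean of the T cell list was -0.26, -0.36 and -0.23 on the 6wk arrays and -0.52, 0.17 and 0.13 on the 7wk arrays. Array 7wk A was thus its lowest, below every 6wk array. The mean of the B cell list was -0.09, -0.52 and -0.11 at 6wk and -0.03, 0.01 and 0.16 at 7wk.

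Plasma cell genes took another course. Of 10 such genes 6 were tested, and Igha, encoding the heavy chain of IgA (3.43, SE 0.37, adjusted p = 0.000294), Jchain, which joins its units (2.71, SE 0.42, adjusted p = 0.00245), and Sdc1, which epithelium also expresses (1.89, SE 0.20, adjusted p = 0.000249), rose from 3wk to 7wk (9.98% of all genes called). The mean of the list was -1.18 to -0.91 on the 3wk arrays and 0.24 to 0.42 on the 7wk arrays, with -0.39 on 4wk B and 0.00 to 0.22 at 6wk. Its correlation with the Cd3 mean was -0.15.

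Values of other cell types and of the arrays themselves moved with part of the pattern. Of 14 genes of lymph node stroma and high endothelial venules (the vessels by which lymphocytes enter nodes) 10 were tested. Their mean log2 ratio was 0.37, -0.13 and 0.38 at 3wk, -0.24, -0.69 and 0.02 at 4wk, and -0.23 and -0.49 at 5wk. It was -0.26, -0.36 and -0.21 at 6wk and -0.07, 0.80 and -0.12 at 7wk, highest on 7wk B and lowest on 4wk B. The Cd3 mean was -1.1, 1.59 and 2.43 at 3wk, so that 3wk A was low for the Cd3 chains and not for this list. Over all arrays the r of this list with the Cd3 mean was 0.61. Glycam1, a ligand on those venules that mammary epithelium also makes as a milk protein, was 8.99, 18.9 and 7.33 at 3wk, 6.29, 0.142 and 17.9 at 4wk, 0.422 and 0.0964 at 5wk, 0.585, 0.402 and 0.125 at 6wk and 1.42, 21.3 and 0.194 at 7wk. Madcam1, the other defining gene of the list, stayed between 0.694 and 1.21, and Ccl21a and Ccl19 were not analysed here. Ccr7, by which lymphocytes home to nodes, was below the level tested, and was 0.825, 2.25 and 3.21 at 3wk, 1.79, 0.914 and 0.999 at 4wk, 1.02 and 0.947 at 5wk, 0.745, 0.591 and 0.687 at 6wk and 1.001, 7.24 and 2.20 at 7wk. None of the defining markers named here is listed at 0. The part of lymph node tissue in the differences between arrays was not tested.

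The mean of 20 macrophage and myeloid genes ranged from -0.59 on 3wk A to 0.23 on 6wk C, with r = 0.17 to the Cd3 mean, and that of 8 epithelial genes from -2.13 on 3wk A to 0.83 on 6wk C, with r = -0.27. Low member values on 3wk A thus stood beside low values of macrophage and epithelial genes on that array. Not every list was low there. On 3wk A the mean was 0.9 for skeletal muscle genes, their highest array, 0.37 for lymph node stroma, 0.2 for endothelium and 0.09 for adipocyte genes. The remaining lists of genes outside the members were below 0 on it. On 4wk B the macrophage mean was -0.18, within the -0.19 to -0.18 of that week. The epithelial mean on 4wk B was -1.12, the lowest of its week, with -0.97 on 4wk A and -0.77 on 4wk C. The hybridisation controls, spiked in before hybridisation, averaged -1.87, -0.79 and -0.97 (log2) on the 7wk arrays and from -0.58 to 1.10 on the others. The 5' minus 3' log2 difference of actin, a sign of RNA integrity, was -0.46, -0.79 and -0.09 on the 6wk arrays and from -0.26 to 0.28 on the others. The part of these in the member differences was not tested beyond fits with either as a covariate, whose counts of calls are given above.

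**Figure D5:**
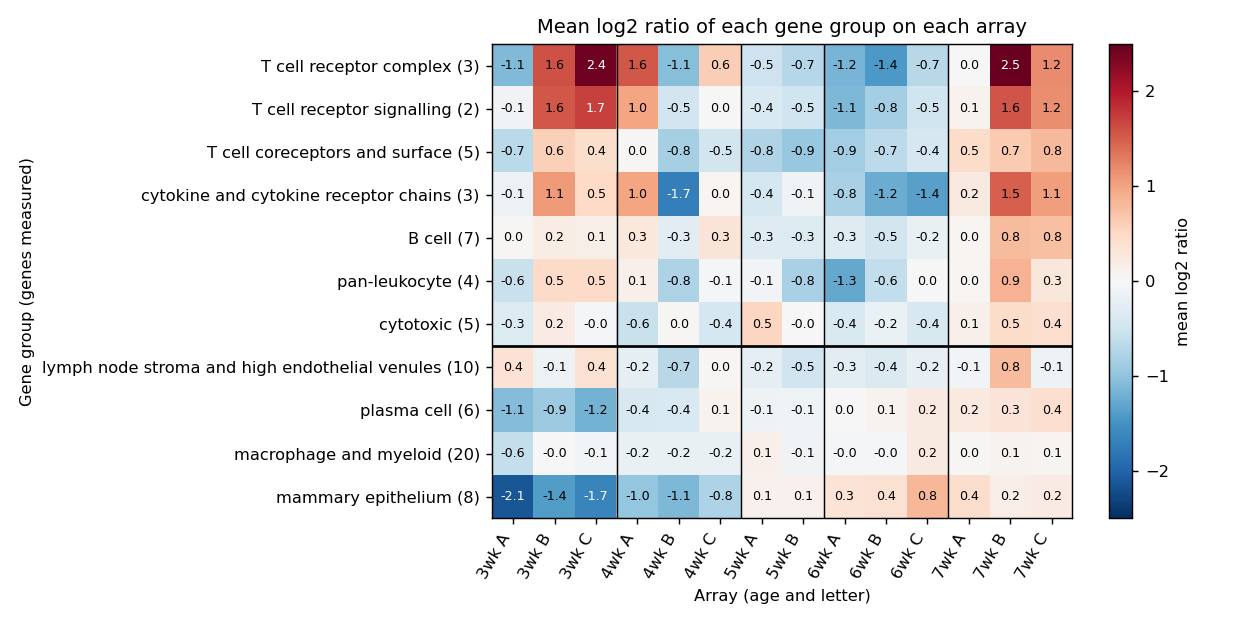
Mean log2 ratio of the tested genes of each group (rows, number of genes in brackets) on each of the 14 arrays (columns, by age and letter), with colour and printed value on the same scale. Rows above the thick line are the member groups and rows below it are other gene lists. The Cd3 chains run from -1.44 on 6wk B to 2.48 on 7wk B, and the plasma cell and epithelial rows are lowest at 3wk instead.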

How the data were processed

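The deposited table holds, for each of 14 arrays, linear ratios per probe set. Tests on the values showed that 98.48% of 22690 probe sets have a median of 1 within 0.001, so the authors' deposited ratios had been divided by each probe set's median. 337 probe sets with a median below 0.98 had been divided by a shared minimum instead. Low values on each array were whole multiples of an array step (0.0593 to 0.1006, largest over smallest 1.70). Signals had therefore been scaled per array before the division. This gave levels in steps for 7774 probe sets. For the array software, the sources used here give no name.

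The log2 of each ratio was used without an offset or further normalization, since array medians differed by at most 0.0938. The 64 control probe sets, and 4001 below 200 steps on all or all but 1 arrays, were left out, leaving 18625. One model with age as a factor over all arrays was fitted with limma 3.58.1 (R 4.3.3), giving an F test and 7 comparisons, two-sided, with Benjamini-Hochberg adjustment over all 18625 and a threshold of 0.05. It was tested on simulated data first. Replicates are the arrays of 1 age. Nothing says whether a mouse gave RNA to several pools, p-values reflect only the scatter of pools, and the number of arrays limits the precision. The letters A, B and C did not pair arrays. Other gene lists were tested as means over the probe sets of a gene.

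Members and lists were chosen with earlier results of these data known. By rule, values on every array are given for the main receptor, B cell and killer cell genes, for members called, and for the 3 with the largest spread. Of other genes, the 8 most correlated and up to 3 of each list are named. Probe sets were named from the platform annotation (20380 name 1 gene), and sequences are from RefSeq. Alternatives were other filters, scalings and covariates, a small offset, and each array left out. Plots used matplotlib 3.10.9, and tables pandas 2.3.3 with numpy 2.4.6, in Python 3.11.15.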

Additional observations from a re-analysis of the deposited data

How the results depend on the processing

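Of the 18 counts followed, 109 of 154 values under another filter, scaling, covariate or unit stayed within 1.5 times the count reported, as did 179 of 236 values from fits that left out 1 array; neither says which probe sets were called. The cause of the moved counts was not tested. With the hybridisation controls as a covariate all calls were 1002 in the F test, 352 at 7wk minus 3wk and 8 at 4wk minus 3wk. They were 16 at 5wk minus 4wk, 32 at 6wk minus 5wk and 18 at 7wk minus 6wk. Members called were 8 in the F test (22.2%, against 5.38% of all). At 7wk minus 3wk 2 were called (5.56%, against 1.89%) and at 6wk minus 3wk also 2 (5.56%, against 12.0%). With the actin 5' to 3' ratio all calls were 845 in the F test, 566 at 6wk minus 3wk and 14 at 4wk minus 3wk. They were 17 at 5wk minus 4wk, 9 at 6wk minus 5wk and 2 at 7wk minus 6wk. Members called were 1 in the F test (2.78%, against 4.54% of all) and 2 at 7wk minus 3wk (5.56%, against 7.90%). They were 0 at 6wk minus 3wk (3.04% of all), 5wk minus 3wk (2.44%) and 7wk minus 6wk (0.0107%). As genes instead of probe sets, which are fewer, all calls were 1148 in the F test, 1499 at 6wk minus 3wk and 44 at 5wk minus 4wk. They were 0 at 6wk minus 5wk (limma, with 992 at an unadjusted p under 0.05) and 38 at 7wk minus 6wk. With no filter all calls were 9 at 4wk minus 3wk, 73 at 5wk minus 4wk and 95 at 7wk minus 6wk. At 6wk minus 3wk 2 members were called with no filter, Zap70 and Cd4 (4.55%, against 9.22% of all). The filter of 400 steps gave 221 calls at 5wk minus 4wk. It left 28 members, without Cd28 and that probe set of Zap70. Of these it called 1 in the F test (3.57%, against 14.8% of all) and 1 at 5wk minus 4wk (3.57%, against 1.43%). It called 0 at 7wk minus 3wk (11.8% of all) and 7wk minus 6wk (1.34%). Quantile normalization gave 7 calls at 4wk minus 3wk and 361 at 5wk minus 4wk. It called 2 members at 5wk minus 3wk (5.56%, against 3.34% of all) and 1 at 5wk minus 4wk (2.78%, against 1.94%). At 7wk minus 6wk it called 2 (5.56%, against 0.966%). Median centring gave 1 member at 5wk minus 4wk (2.78%, against 0.870% of all). An offset of 0.05 gave 2 at 6wk minus 3wk (5.56%, against 13.6%).

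The letters did not pair the arrays: deviations of arrays with the same letter correlated at -0.07 to 0.08. With the replicate letter as a block, calls were 9 at 4wk minus 3wk, 34 at 5wk minus 4wk and 2 at 6wk minus 5wk. Members called by limma were 0 at 5wk minus 3wk (Zap70, -1.68, adjusted p = 0.0643), where it called 3.15% of all.

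Leaving out each array in turn gave 1332 to 1643 calls in the F test, 922 to 1522 at 7wk minus 3wk, 1550 to 2420 at 6wk minus 3wk, 195 to 618 at 5wk minus 3wk, 0 to 29 at 4wk minus 3wk, 11 to 199 at 5wk minus 4wk, 10 to 46 at 6wk minus 5wk and 38 to 266 at 7wk minus 6wk. Members called were 2 to 5 in the F test (5 without 4wk B, 13.9%, against 7.53% of all). At 7wk minus 3wk they were 1 to 2 (2 without 7wk A, 5.56%, against 4.97%). At 6wk minus 3wk they were 1 to 5 (5 without 3wk A, 13.9%, against 9.65%, and 3 without 4wk B, 8.33%, against 12.7%). They were 0 to 1 at 5wk minus 3wk and at 5wk minus 4wk (1 in each without 6wk A, 2.78%, against 3.26% and 0.607%). At 7wk minus 6wk they were 1 to 3 (3 without 4wk B, 8.33%, against 0.671%). Counts of members whose arrays do not overlap were added as an alternative after seeing the data: 17 to 27 of 36 with 6wk below 3wk (47.2% to 75.0%, against 15.2% to 18.8% of all tested) and 24 to 29 of 36 with 7wk above 6wk (66.7% to 80.6%, against 14.1% to 17.9%) with 1 array left out. Under another filter, scaling or unit, with 28 to 44 members tested, they were 13 to 22 (46.4% to 50%, against 11.6% to 15.1%) and 19 to 27 (61.1% to 69.0%, against 9.72% to 10.4%). The 18 tested members with a recovered level had low signal, to differing degrees. Some fell near the floor of the array, such as Cd28 probe set 1437025_at, Cd3d and Ltb (lowest at 20, 14 and 13 steps), which limits the size of their folds. Others stayed higher, such as Nkg7, with a median of 259 steps.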
